A study of Mus musculus with 3 samples.

Results

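The 10 genes described here are Egr1, Fos, Fosb, Jun, Junb, Ier2, Ier3, Atf3, Dusp1 and Zfp36, immediate early genes that serum or stress induces in many mammalian cells. They were chosen by name, with earlier results of these data known, and no measured value entered the rule that picks their rows. All 10 were found among the 24006 gene symbols in the tables. Polyadenylated RNA of mouse embryonic stem cells was sequenced in 3 libraries. One was wildtype (clone WT26), one a DAXX knockout (DAXX-/-, clone KO2-3) and one an ATRX knockout (ATRX-/-, clone KO1-44). All 3 were male and isogenic, with the strain background C57BL/6x129sV, and the knockouts were made by CRISPR targeting. Each genotype was a single clone with 1 library, so genotype, clone and library cannot be told apart. The medium held fetal bovine serum and leukaemia inhibitory factor throughout, and the cells had been passaged off irradiated feeder cells onto gelatin. The labels name no stimulation or serum withdrawal.

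Immediate early genes are transcribed within minutes of a signal because the factors that switch them on are already present. Growth factors act through the kinase ERK, which phosphorylates ternary complex factors such as ELK1 bound beside serum response factor (SRF) at CArG boxes, and other kinases act through CREB at cAMP response elements. Many of the transcripts carry AU-rich elements in the 3′ untranslated region and decay quickly. In embryonic stem cells, FGF4 keeps ERK active at a low level. DAXX is a chaperone of the histone variant H3.3, and with the remodelling enzyme ATRX it deposits H3.3 at heterochromatin and repeats.

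The main transcripts of these genes have few exons. The transcript that took most reads had at most 4 exons in all 10 members and 1 exon in 3 of them (Jun, Junb and Ier2), whereas 23.0% of 13283 measured genes had at most 4, 2.54% had 1 and the median was 9. The pentamer ATTTA, the core of AU-rich elements, occurred in the 3′ untranslated region of 9 of 10 members, all but Ier2, against 73.6% of the 6085 measured genes whose region was between 485 and 2145 bases long, the range of the members. The longer TTATTTATT was found in 3 of 10 members, Fos, Dusp1 and Zfp36, and in 6.75% of those genes. Both motifs were searched on the transcribed strand, and each TTATTTATT holds an ATTTA. The density of ATTTA was highest in Ier3, at 8.16 per kilobase, and lowest after Ier2 in Fosb, at 0.466, beside a median of 1.37 over genes of that length range. The first TTATTTATT of each of the 3 members is shown in capitals, from GENCODE M21 on GRCm38, because tristetraprolin, the product of Zfp36, binds this motif.
Fos, 3′ untranslated region: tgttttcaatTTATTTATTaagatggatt
Dusp1, 3′ untranslated region: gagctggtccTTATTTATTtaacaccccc
Zfp36, 3′ untranslated region: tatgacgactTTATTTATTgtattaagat

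Promoter windows of 300 bases, 250 before and 50 after the start in RefSeq (GRCm38.p6), were given for 8 of the 10 members. Both strands were searched. A CArG box, the site of SRF, was found for Zfp36 (1 of 8, against 1.63% of 32851 windows). The full cAMP response element TGACGTCA was found for Dusp1 (1 of 8, against 1.79%). Its first bases alone, TGACG, which overlap the full element, were found for Atf3, Dusp1, Fos, Fosb and Junb (5 of 8, against 20.8%). The TATA box TATAAA was found for Fos and Junb (2 of 8, against 13.6%). The AP-1 site TGANTCA was found for 0 of 8 (against 7.81%), and the ETS core GGAA for 8 of 8 (against 96.0%). A match is a description of letters and says nothing of a factor's binding, and no match says only that the letters are not in the window. The stretches before the start of Fos and Junb, and the surroundings of the motif for Zfp36 and Dusp1, are given below. Capitals mark the CArG box, the TATA box, TGACGTCA in Dusp1 and, in Fos and Junb, TGACG alone, which is not the full cAMP response element. The stretches of Zfp36 and Dusp1 lie before the RefSeq start used but inside the span that GENCODE gives for each gene. The match to TATAAA for Junb begins at the RefSeq start and lies outside the stretch shown. GENCODE starts Junb further downstream, at base 84978718, so the match lies before that start. Fos, Zfp36 and Junb are shown for having the 3 largest folds in ATRX-/- cells among the members with a window, and Dusp1 for its full cAMP response element.
Fos, chr12:85473770-85473889, plus strand: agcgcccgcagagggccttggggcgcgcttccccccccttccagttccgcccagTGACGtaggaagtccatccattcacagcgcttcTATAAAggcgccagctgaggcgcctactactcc
Junb, chr8:84978749-84978868, minus strand: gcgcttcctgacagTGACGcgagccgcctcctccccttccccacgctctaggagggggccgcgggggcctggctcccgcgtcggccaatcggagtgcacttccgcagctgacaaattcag
Zfp36, chr7:28379267-28379296, minus strand: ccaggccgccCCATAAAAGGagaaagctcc
Dusp1, chr17:26508597-26508626, minus strand: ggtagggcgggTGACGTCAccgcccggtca

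Reads on transcripts numbered 13981915 in wildtype, 11224100 in DAXX-/- cells and 13988376 in ATRX-/- cells. Values are given as CPM, the read count relative to the library total after TMM scaling, and intervals in parentheses are 95% counting intervals. With 1 library per genotype no test of genotype was possible, and the intervals compare libraries. The call rule asked that no value inside a gene's 95% interval be closer to no change than 2-fold, and "rose" and "fell" are used for calls alone. Genes with at least 1 CPM in 1 of the libraries compared were tested. Atrx had 4582 reads in wildtype and 1800 in ATRX-/- cells, a fold of 0.412 (0.390 to 0.435). Daxx had 1125 reads in wildtype and 623 in DAXX-/- cells, a fold of 0.736 (0.666 to 0.812). Both targeted genes were lower but still detected, and Atrx met the call rule while Daxx did not. All 10 pluripotency markers were above 1 CPM in every library, and 0 of 10 were called in any comparison, with Pou5f1 at 1193, 1457 and 1284 CPM and Zfp42 at 950, 928 and 895 CPM. The median log2 fold of the 10 was 0.28 in DAXX-/- cells, 0.10 in ATRX-/- cells and -0.04 between the knockouts. The 10 primitive endoderm markers summed to 323 CPM in wildtype, 77.5 in DAXX-/- cells, where Sox17 was at 0, and 177 in ATRX-/- cells. Of these 10, 9 fell in DAXX-/- cells, such as Cubn from 213 reads to 2, and 3 fell in ATRX-/- cells, Cubn, Dab2 and Lama1. Over all genes tested, 1.55% fell in DAXX-/- cells and 1.15% in ATRX-/- cells, which also applies to the marker counts that follow. Between the knockouts 5 of 8 tested (Gata4, Gata6, Col4a1, Col4a2 and Cubn) were higher in ATRX-/- cells, against 0.77% of all genes. Their list had a median of 1.63 in that comparison, where Egr1 and Fos were also higher. Against wildtype the list median was -2.90 in DAXX-/- cells and -1.22 in ATRX-/- cells, where Egr1 and Fos were higher. The 12 fibroblast markers summed to 97.1, 56.8 and 73.5 CPM, of which Vim alone gave 57.8, 43.1 and 49.5. Lum was at 0 in all 3 libraries. Col3a1, Postn and Dcn were at 0 in both knockouts and had only 2, 1 and 1 reads in wildtype. Of 8 fibroblast markers tested, 4 fell in DAXX-/- cells and 1 in ATRX-/- cells. The 10 trophoblast markers summed to 129, 87.0 and 94.7 CPM. Cdx2 and Elf5 were at 0 in wildtype, Hand1 (5 reads in wildtype) at 0 in DAXX-/- cells and Elf5 (1 read in DAXX-/- cells) at 0 in ATRX-/- cells. Of 7 tested, 2 fell in DAXX-/- cells and 1 in ATRX-/- cells, where 4 intervals lay wholly below no change and 0 wholly above. Cdx2 had 0, 3 and 13 reads in wildtype, DAXX-/- and ATRX-/- cells, under 1 CPM in each, and was not tested. Between the knockouts 2 of 7, Krt19 and Esx1, were higher in ATRX-/- cells (median 0.62), and 0 of 6 fibroblast markers tested were called (median 0.64). The part of these other cells in the levels below was not tested, and in bulk RNA fewer cells of a type and less RNA per cell cannot be told apart.

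Together the 10 genes took 4056 reads in wildtype, 3380 in DAXX-/- cells and 5944 in ATRX-/- cells, or 0.0290%, 0.0301% and 0.0425% of the reads on transcripts. Their summed CPM was 279 in wildtype, 309 in DAXX-/- cells and 429 in ATRX-/- cells, a ratio to wildtype of 1.11 in DAXX-/- cells and 1.54 in ATRX-/- cells. Ier2 alone made up 56.4%, 58.5% and 43.7% of that sum. Without Ier2 the sum was 122 CPM in wildtype, 129 in DAXX-/- cells and 242 in ATRX-/- cells, a ratio of 1.99 between ATRX-/- cells and wildtype and of 1.06 between DAXX-/- cells and wildtype.

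Per kilobase of transcript the genes spanned a wide range in wildtype. Ier2 had 104 CPM per kilobase and Fosb 0.239, which placed Fosb above 1.68% of the 13336 genes with at least 1 CPM in any library. Junb followed Ier2 at 22.2 and Dusp1 at 10.3, each apart from its neighbours beyond counting error. Egr1 at 5.32, Zfp36 at 4.96 and Fos at 4.90 had overlapping intervals, as did each next pair down to Ier3 at 3.35, Atf3 at 2.95 and Jun at 2.12. In ATRX-/- cells Egr1 (14.3), Zfp36 (13.6), Fos (13.5) and Dusp1 (12.7) followed Ier2 and Junb, each overlapping the next. Egr1 was above 40.9% of the 13336 genes in wildtype, 27.5% in DAXX-/- cells and 64.2% in ATRX-/- cells. In DAXX-/- cells Egr1 stood at 2.51 CPM per kilobase, between Atf3 (3.18) and Ier3 (1.62), with intervals that overlapped both. There Zfp36 (7.66) lay above Fos (4.00) beyond counting error. The value per kilobase of Egr1 used the longer of its transcripts, 4484 bases, although reads were also placed on one of 3036 bases.

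**Figure D1:**
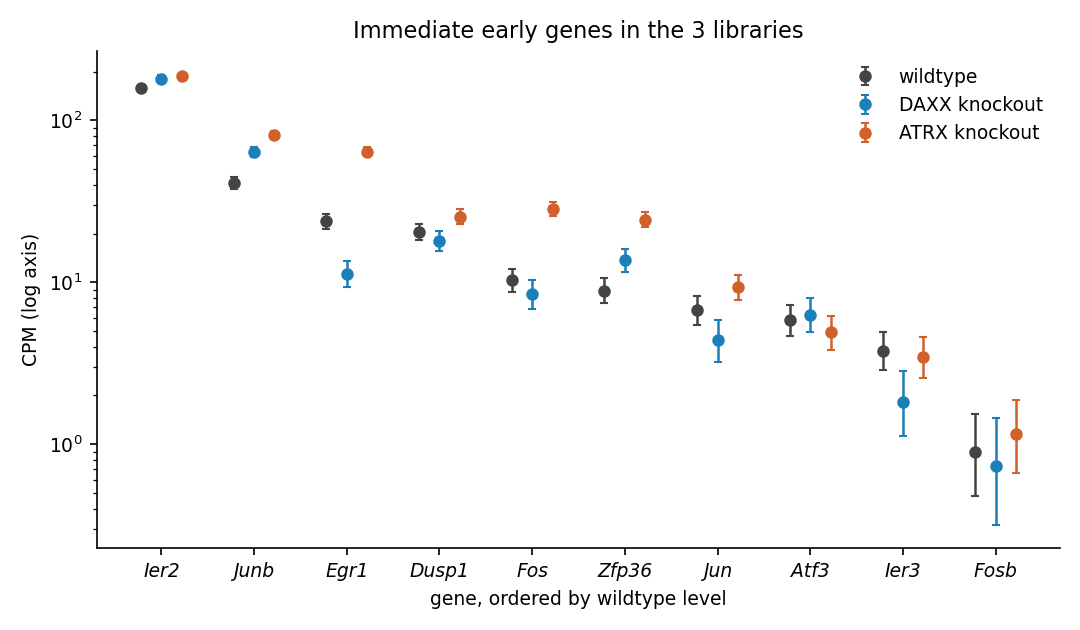
CPM on a log axis for each of the 10 genes in the wildtype, DAXX-/- and ATRX-/- libraries, 1 library each, with points for the level and bars for the exact Poisson 95% interval. Egr1, Fos and Zfp36 reach 63.9, 28.5 and 24.3 CPM in ATRX-/- cells, above both other libraries, while Ier2 lies between 158 and 188 CPM in all 3.

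Egr1, on chromosome 18, encodes a zinc finger transcription factor and is one of the most direct readouts of ERK signalling. It had 346 reads in wildtype, 123 in DAXX-/- cells and 885 in ATRX-/- cells, or 23.8 CPM (21.4 to 26.5), 11.3 CPM (9.36 to 13.4) and 63.9 CPM (59.8 to 68.3). The 3 intervals did not overlap, with DAXX-/- cells lowest and ATRX-/- cells highest. Against wildtype the log2 fold was -1.08 (-1.39 to -0.78) in DAXX-/- cells, whose interval crosses the 2-fold limit, and 1.42 (1.24 to 1.61) in ATRX-/- cells, which passed it. Of all genes tested, 94.6% had a higher fold than Egr1 in DAXX-/- cells and 0.983% had a higher one in ATRX-/- cells. Directly between the knockouts Egr1 was 5.67-fold higher in ATRX-/- cells (4.69 to 6.91), and 52 of 12991 genes tested had a larger fold there. Its reads were divided between the transcripts of 4484 and 3036 bases in similar shares, with 53.8% (48.3 to 59.1), 61.0% (51.8 to 69.6) and 52.8% (49.4 to 56.1) on the longer one, and the exact binomial intervals overlapped. How a read matching both was placed is not stated in the sources used here.

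The Fos and Jun proteins pair to form the transcription factor AP-1. Fos (chr12:85473890-85477273, plus strand) had 150 reads in wildtype, 92 in DAXX-/- cells and 394 in ATRX-/- cells, which gave 10.3 CPM (8.75 to 12.1), 8.42 CPM (6.79 to 10.3) and 28.5 CPM (25.7 to 31.4). Only ATRX-/- cells stood apart, as the intervals of wildtype and DAXX-/- cells overlapped. The log2 fold of Fos was -0.29 (-0.69 to 0.09) in DAXX-/- cells and 1.46 (1.19 to 1.74) in ATRX-/- cells against wildtype, and 1.76 (1.43 to 2.10) between the knockouts. Fosb (chr7:19302696-19310051, minus strand), the close relative of Fos, had 13, 8 and 16 reads, or 0.896, 0.733 and 1.16 CPM. At this depth a difference between the libraries was not detectable, with a log2 fold of 0.37 (-0.78 to 1.54) in ATRX-/- cells, and Fosb was under the 1 CPM minimum for the comparison of DAXX-/- cells with wildtype.

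Junb (chr8:84974484-84978718, minus strand), the Jun family member that often restrains c-Jun, had 594 reads in wildtype, 698 in DAXX-/- cells and 1119 in ATRX-/- cells. Its level was 40.9 CPM (37.7 to 44.3), 63.9 CPM (59.3 to 68.8) and 80.8 CPM (76.1 to 85.7), so that both knockout libraries lay above wildtype and apart from each other. The log2 folds against wildtype were 0.64 (0.48 to 0.80) and 0.98 (0.84 to 1.13), inside or across the 2-fold limit. Jun (chr4:95049034-95052222, minus strand), which encodes c-Jun, had 98, 48 and 129 reads, or 6.75 CPM (5.48 to 8.23), 4.40 CPM (3.24 to 5.83) and 9.32 CPM (7.78 to 11.1). Wildtype overlapped each knockout at its edge, while the knockouts did not overlap. Its folds against wildtype pointed in opposite directions, at -0.62 (-1.15 to -0.11) and 0.46 (0.07 to 0.86), and between the knockouts it was 1.08 (0.60 to 1.59), none past the rule. The antisense gene Junos, which shares 232 exonic bases with Jun, had 0 reads in all 3 libraries.

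Atf3 (chr1:191170296-191218039, minus strand) encodes a stress-induced partner of AP-1 that amino acid shortage and p53 can also raise. It had 85, 69 and 68 reads, or 5.86 CPM in wildtype, 6.32 CPM in DAXX-/- cells and 4.91 CPM in ATRX-/- cells. All 3 Poisson intervals overlapped, and the log2 folds against wildtype were 0.11 (-0.37 to 0.58) and -0.25 (-0.74 to 0.22). Its transcripts of 1984 and 1906 bases took near-equal shares, with 45 and 40 reads in wildtype, 37 and 32 in DAXX-/- cells and 34 on each in ATRX-/- cells.

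Transcripts of the Fos and Jun families were set beside each other per kilobase, with Fosl1, Fosl2 and Jund added to complete the families. The 3 Jun genes summed to 53.9 CPM per kilobase in wildtype, 84.6 in DAXX-/- cells and 104 in ATRX-/- cells, against 6.50, 5.17 and 15.2 for the 4 Fos genes. The Jun family was therefore 8.29, 16.4 and 6.82 times as abundant as the Fos family. Jund, which is less inducible than the other Jun genes, was the largest contributor, with 29.6, 48.5 and 57.0 CPM per kilobase. Its log2 folds against wildtype were 0.71 (0.60 to 0.82) and 0.95 (0.85 to 1.05), beside the values of Junb. Fosl1 and Fosl2 had 23 and 37 reads in wildtype, 13 and 18 in DAXX-/- cells and 27 and 22 in ATRX-/- cells. Fos accounted for 8.11%, 4.45% and 11.3% of the summed level of the 7 genes.

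**Figure D2:**
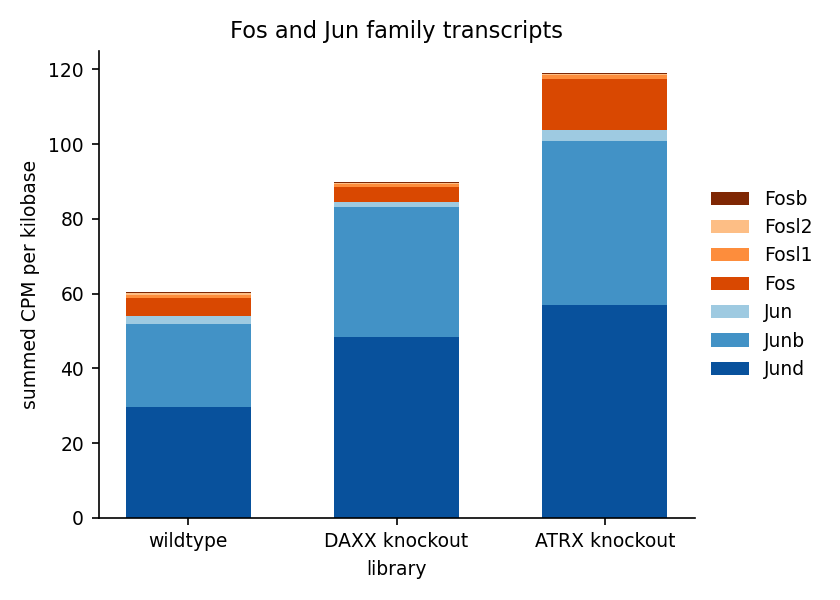
Stacked bars of CPM per kilobase for the 4 Fos genes (orange and brown) and the 3 Jun genes (blue) in the 3 libraries. Jund and Junb form most of each bar, and Fos has its thickest layer, 13.5 CPM per kilobase, in ATRX-/- cells.

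Zfp36 (chr7:28376784-28380253, minus strand) encodes tristetraprolin, which promotes decay of transcripts with AU-rich elements, its own among them. It had 129 reads in wildtype, 150 in DAXX-/- cells and 337 in ATRX-/- cells, or 8.89 CPM (7.42 to 10.6), 13.7 CPM (11.6 to 16.1) and 24.3 CPM (21.8 to 27.1). The intervals did not overlap, and both knockouts lay above wildtype. The log2 fold was 0.63 (0.28 to 0.98) in DAXX-/- cells and 1.45 (1.16 to 1.76) in ATRX-/- cells, and 0.83 (0.54 to 1.11) between them. Of the genes tested in DAXX-/- cells, 4.43% had a higher fold than Zfp36. Among 17 AU-rich element binding and mRNA decay factors, Zfp36 included, 0 were called in DAXX-/- cells (median 0.11), and Zfp36 was the 1 called in ATRX-/- cells (median 0.03). Hnrnpd, which encodes the binding protein AUF1, was at 0.46 (0.40 to 0.51) and 0.35 (0.30 to 0.40), and Cnot1, the scaffold of the deadenylase complex, at 0.15 (0.11 to 0.19) and 0.18 (0.14 to 0.22). Between the knockouts 0 of 17 were called, with a median of -0.01.

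Dusp1 (chr17:26505590-26562128, minus strand) encodes a phosphatase that switches off MAP kinases. It had 297, 196 and 351 reads, or 20.5 CPM (18.2 to 22.9), 17.9 CPM (15.5 to 20.6) and 25.3 CPM (22.8 to 28.1). The intervals of the knockouts did not overlap, with wildtype between them and touching both, and the log2 folds against wildtype were -0.19 (-0.46 to 0.08) and 0.31 (0.08 to 0.54). Ier3 (chr17:35821684-35822923, plus strand), whose product prolongs ERK activity and affects survival, had 55, 20 and 48 reads, or 3.79 CPM (2.85 to 4.93), 1.83 CPM (1.12 to 2.83) and 3.47 CPM (2.56 to 4.60). It was lowest in DAXX-/- cells, at a log2 fold of -1.05 (-1.87 to -0.29), and the interval crossed the 2-fold limit. Ier2 (chr8:84661331-84662852, minus strand), which encodes a nuclear protein of the early serum response, had 2289, 1976 and 2597 reads, or 158 CPM (151 to 164), 181 CPM (173 to 189) and 188 CPM (180 to 195). Wildtype lay below both knockouts, which overlapped, and the log2 folds were 0.20 (0.11 to 0.29) and 0.25 (0.17 to 0.33).

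In ATRX-/- cells against wildtype 3 of 10 members (Egr1, Fos and Zfp36) were called higher, against 0.695% of the 13230 genes tested, and 0 lower, against 1.15%. The 3 stood at folds of 2.68 (2.37 to 3.04), 2.75 (2.28 to 3.35) and 2.74 (2.23 to 3.38). The median log2 fold of the members was 0.40, beside 0.02 over 12838 genes with a mean of at least 1 CPM. Intervals lay wholly above no change for 7 of 10 members and wholly below for 0, against 25.4% and 21.3% of all genes. The 3 others whose intervals included no change were Fosb, Ier3 and Atf3.

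In DAXX-/- cells against wildtype 0 of 9 members tested were called higher, against 0.487% of the 13151 genes tested, and 0 lower, against 1.55%. Intervals lay wholly above no change for Junb, Ier2 and Zfp36 (3 of 9, against 23.7% of all genes). They lay wholly below for Egr1, Jun and Ier3 (3 of 9, against 17.1%). All genes also lay on both sides, so these counts are given as a description. The median was -0.19 over 9 members and 0.03 over 12747 genes, and the members ran from -1.08 to 0.64. In ATRX-/- cells against DAXX-/- cells 2 of 10 members (Egr1 and Fos) were called higher, against 0.77% of 12991 genes, and 0 lower, against 0.362%. The median was 0.82 over 9 members and 0.00 over 12612 genes, with 7 of 10 intervals wholly above no change, against 20.7% of all genes, and 0 wholly below, against 20.9%. These comparisons share libraries, so their values are given side by side and are not independent.

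**Figure D3:**
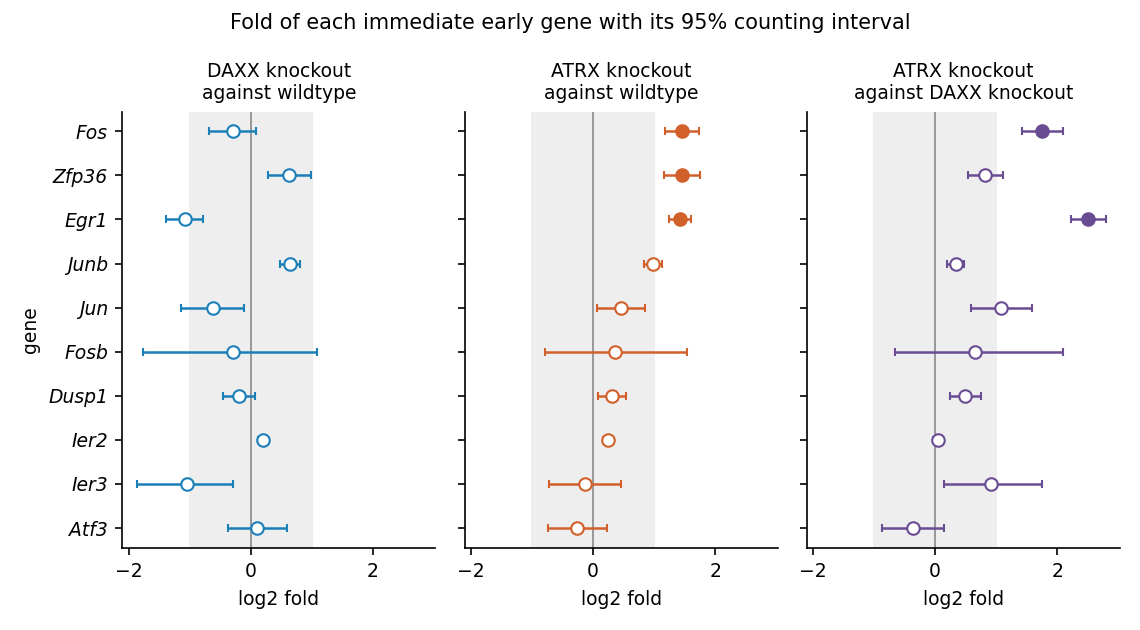
Log2 fold of each gene with its 95% counting interval in 3 panels, 1 for each comparison, with filled points for genes called and a grey band for the range inside 2-fold. Fos, Zfp36 and Egr1 lie beyond the band in ATRX-/- cells against wildtype, while in DAXX-/- cells the points of Egr1 and Ier3 lie below the band and their intervals reach into it.

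The other genes of the response were read from lists fixed by name. Of 52 further immediate early genes found, 46 were tested in each knockout. In DAXX-/- cells 0 were called (median 0.18), with the survival gene Mcl1 at 0.21 (0.15 to 0.27) and the pluripotency factor Klf4 at 0.28 (0.22 to 0.35). In ATRX-/- cells Plk2, which encodes a kinase and is also a p53 target, rose by 1.27 (1.07 to 1.46) and 0 fell (median 0.27), with Klf4 at 0.61 (0.55 to 0.66) and Mcl1 at 0.29 (0.23 to 0.34). Between the knockouts 1 of 45, Plk2, was higher, at 1.70 (1.46 to 1.95), with a median of 0.09. Of Egr2 and Egr3, the relatives of Egr1, neither passed 1 CPM in any library, with 1, 1 and 6 reads for Egr2 and 1, 0 and 3 for Egr3. Egr4, a further relative, had 15, 10 and 12 reads and passed 1 CPM in wildtype alone, at 1.03. Its log2 folds were -0.17 (-1.49 to 1.08) in DAXX-/- cells and -0.25 (-1.48 to 0.94) in ATRX-/- cells. Egr2, Egr3 and Egr4 were named after their values were seen.

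Transcripts of the signalling chain above the genes had medians close to that of all genes. Of 28 kinases and transcription factors upstream, 0 were called in any comparison, and the medians were 0.08 in DAXX-/- cells, 0.01 in ATRX-/- cells and 0.01 between the knockouts. With total-count scaling the first and second became -0.02 and -0.06, so no direction is given. Rps6ka1, which encodes a kinase that ERK activates, was at 0.09 (0.02 to 0.16) in DAXX-/- cells and 0.17 (0.11 to 0.24) in ATRX-/- cells. The list was split, with intervals in ATRX-/- cells wholly above no change for 8 of 28 and wholly below for 7. Over all genes these shares were 25.4% and 21.3%. In DAXX-/- cells the counts were 7 and 4, against 23.7% and 17.1%, and between the knockouts 6 and 6, against 20.7% and 20.9%. RNA does not measure the phosphorylation that carries the signal. Among 12 ERK feedback genes, which include Egr1 and Ier3, 0 were called in DAXX-/- cells (median 0.27), Egr1 alone in ATRX-/- cells (median -0.02) and Egr1 alone between the knockouts (median -0.22). Etv5, an ETS factor downstream of FGF, was at 0.67 (0.61 to 0.72) in DAXX-/- cells and 0.32 (0.27 to 0.38) in ATRX-/- cells, and Etv4 at 0.08 (-0.01 to 0.17) and -0.33 (-0.42 to -0.24). In the 17 AP-1 genes, 5 of them members, 0 were called in DAXX-/- cells (median 0.06, or -0.03 with total-count scaling), and Fos was the 1 called in ATRX-/- cells (median 0.29) and between the knockouts (median 0.25). Mafg, a small Maf factor, was at 0.16 (0.05 to 0.28) and -0.12 (-0.24 to -0.01).

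SRF also drives cytoskeletal genes through actin-responsive cofactors. Of 17, 0 rose and 2 fell in DAXX-/- cells, the smooth muscle genes Tagln, by 1.70 (-2.18 to -1.24), and Acta2, from 21 reads to 1. In ATRX-/- cells 0 rose and Acta2 fell, to 2 reads, with Actg1 and Actb, the cytoplasmic actins, at -0.08 (-0.10 to -0.05) and -0.19 (-0.22 to -0.17). Over all genes tested, 1.55% fell in DAXX-/- cells and 1.15% in ATRX-/- cells. Intervals in ATRX-/- cells lay wholly above no change for 4 of 17 and wholly below for 9, against 25.4% and 21.3% of all genes. In DAXX-/- cells they lay above for 2 and below for 6, against 23.7% and 17.1%. The list medians were -0.15, -0.08 and, between the knockouts, 0.19, where 0 of 13 were called. Both Tagln and Acta2 also count among the fibroblast markers, and Cyr61 and Ctgf of this list among the further immediate early genes.

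Heat shock genes had 0 of 12 called in each comparison, with medians of 0.13, 0.17 and -0.02. Hsp90ab1 was at 0.17 (0.15 to 0.18) and 0.22 (0.21 to 0.23), and Hspa8 at 0.06 (0.04 to 0.07) and 0.00 (-0.01 to 0.02). The list of amino acid response targets of ATF4, which includes Atf4 itself and Atf3, had 0 of 15 called in DAXX-/- cells (median 0.12). In ATRX-/- cells 3 of 15 were lower (median -0.61), against 1.15% of all genes tested. These were Chac1, which degrades glutathione, at -2.01 (-2.43 to -1.62), the pseudokinase gene Trib3, at -1.33 (-1.54 to -1.12), and the stress gene Nupr1, at -1.38 (-1.69 to -1.08). Psat1 and Asns, enzymes of serine and asparagine synthesis, were at 0.05 (0.00 to 0.10) and -0.18 (-0.24 to -0.12) in DAXX-/- cells. Between the knockouts 4 of 15 were lower, those 3 and Atf5 (median -0.63), against 0.362% of all genes tested. Of the p53 targets, which also include Atf3, 0 of 16 were called in DAXX-/- cells (median 0.16), with Ccng1 at -0.22 (-0.29 to -0.14) and Bax at 0.36 (0.27 to 0.45). In ATRX-/- cells 2 of 16 rose, against 0.695% of all genes tested. These were the proapoptotic gene Pmaip1, from 83.0 to 191 CPM, and Plk2 (median 0.67), and Plk2 was the 1 called between the knockouts (median 0.59). Intervals in ATRX-/- cells lay wholly above no change for 14 of 16 p53 targets and wholly below for 1, against 25.4% and 21.3% of all genes. For the ATF4 targets they lay above for 1 of 15 and below for 11. The part of either list in the levels of the members was not tested.

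**Figure D4:**
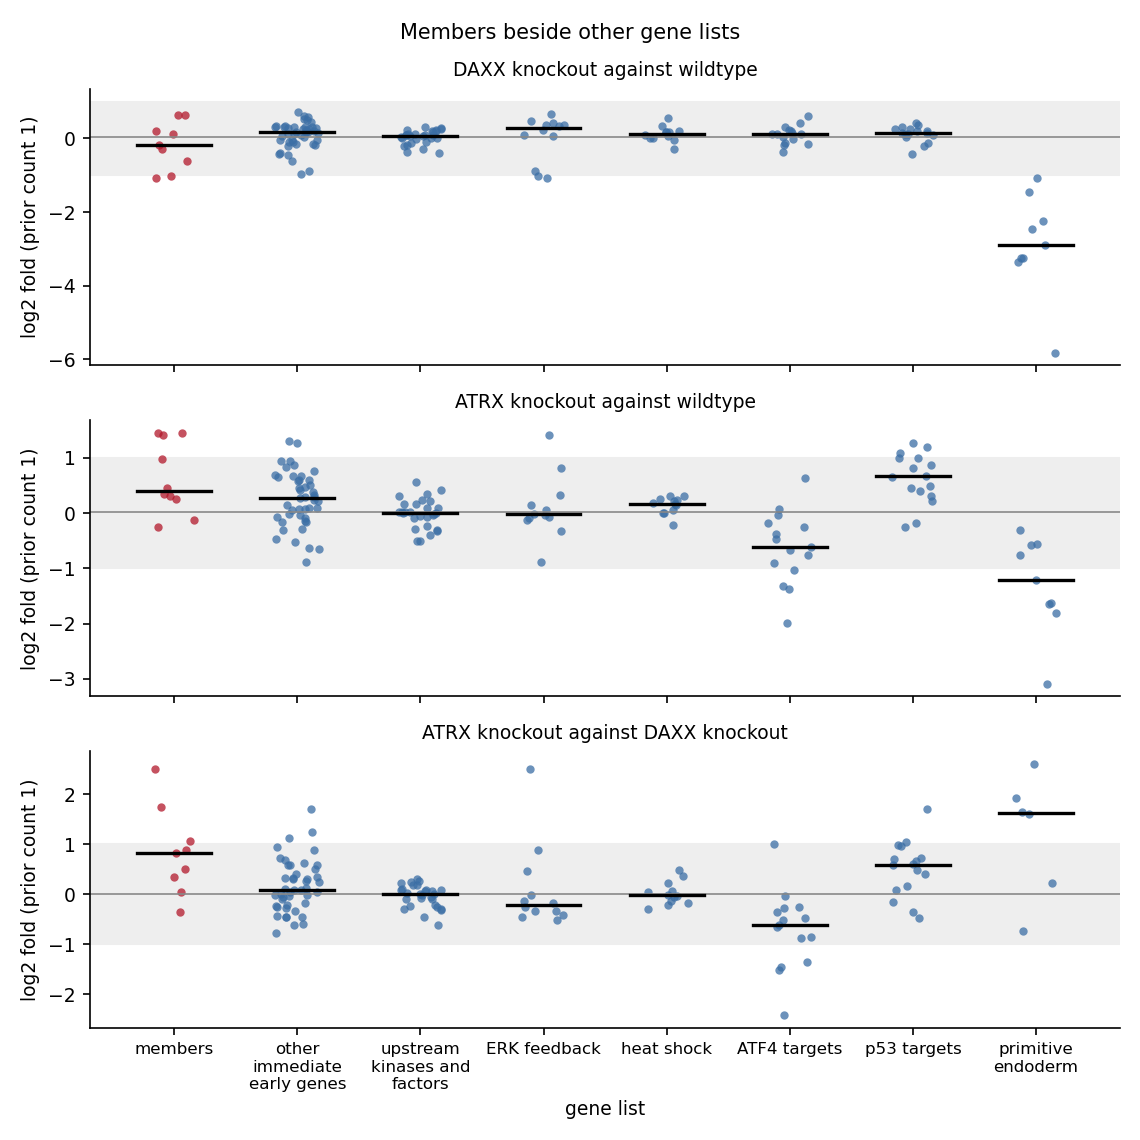
Log2 fold, with a prior count of 1, of genes with a mean of at least 1 CPM in 3 panels, 1 for each comparison, for the members (red) and 7 other lists (blue), with black bars for list medians, a grey line for the median of all genes and a grey band inside 2-fold. In ATRX-/- cells against wildtype the members' median is 0.40. That of p53 targets is 0.67, of other immediate early genes 0.27, of the upstream kinases and factors 0.01 and of ATF4 targets -0.61.

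The genes with a pattern most like Egr1 and Fos over the 3 libraries were found by the distance between their pairs of log2 folds against wildtype, among 9971 others with a mean of at least 5 CPM. Nearest to Egr1 were Kif1a (distance 0.35, with 153, 56 and 499 reads), Ndufa4l2 (0.41, with 75, 33 and 161) and Trp73 (0.51, with 57, 28 and 130). Nearest to Fos were Plk2 (0.23, with 312, 174 and 717 reads), Cdkn1c (0.24, with 152, 107 and 363) and Shisa8 (0.25, with 106, 62 and 236). With 3 libraries this is a likeness of levels and nothing more.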

How the data were processed

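The deposited values are raw read counts per transcript, 1 table per library in the layout of SAMtools idxstats. The tools named per the submitters' processing notes are SAMtools and, at version 1.1.2, Bowtie, with build GRCm38.p4. How reads were aligned, whether strand was kept and which annotation served is not given in the sources used here, so a gene cannot be told from an antisense partner. Counts of a gene's transcripts were summed (48843 transcripts, 24006 symbols) and scaled by TMM (edgeR 4.0.16) over the 3 libraries. Folds carry the exact conditional binomial (Clopper-Pearson) interval, levels the exact Poisson interval, both for counting error only. Genes were tested with at least 1 CPM in 1 of the libraries compared. List medians use genes with a mean of at least 1 CPM and a prior count of 1. Positions and transcripts come from GENCODE M21, whose Fosb, Junb and Zfp36 transcripts differ in length from the deposited ones. The computation of intervals and calls was tested on simulated counts with counting error alone, which says nothing of the spread between cultures. The members and lists were chosen with earlier results of these data known. From each list the rule named up to 4 genes called, or the 2 with most reads where fewer than 2 were called. Fosl1 and Fosl2 are given outside it to complete their family. A gene that the rule names among the upstream factors is not reported here. Alternatives tried were DESeq2 1.42.0 size factors, total counts, TMM of the pair, the most abundant transcript, thinned counts, other filters, fold limits and prior counts.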

Additional observations from a re-analysis of the deposited data

How the results depend on the processing

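No paired analysis was possible because each genotype has 1 library. Egr1, Fos and Zfp36 in the ATRX knockout against wildtype, and Egr1 and Fos between the knockouts, were called under every alternative run. With intervals beyond 1.5-fold, Junb was the fourth member called higher in the ATRX knockout, 1 member (Egr1) was called lower in the DAXX knockout against wildtype, and between the knockouts 3 (Egr1, Fos and Jun) were called higher. With a point fold beyond 2-fold and no interval, 2 (Egr1 and Ier3) were called lower in the DAXX knockout and 3 (Egr1, Fos and Jun) higher between the knockouts. The members' median of 0.40 in the ATRX knockout became 0.57 with counts thinned to the smallest library, and that of 0.82 between the knockouts 0.71 with the most abundant transcript. Of 150 log2 folds of members under other scaling, transcript or depth settings, 149 stayed inside the reported interval, and 1, that of Ier2 in the DAXX knockout at 0.10 with total counts, did not. Scaling by total counts moved the median of all genes by less than 0.1. Fosb, Ier3, Atf3 and Jun are limited by depth, with at most 129 reads in a library.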
